A study of Homo sapiens with 12 samples.

Results

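The sgRNAs described here were the 6043 entries of a pooled knockout screen whose target name is hsa-mir- followed by a number above 500, out of 123411 entries in the count table. They carried 1548 microRNA names, of which 1454 had 4 sgRNAs, 48 had 3, 30 had 2, 15 had 1 and mir-511 had 8. MicroRNAs are numbered in order of discovery, so these are mostly later entries: 318 had numbers under 1000, 152 under 2000, 256 under 4000, 398 under 5000 and 424 numbers from 5000 on, each counted in its lowest band. All 6043 came from sublibrary A of the GeCKO v2 library, and they were compared with 2000 entries of control guides that target no gene, which are the same guides listed once for sublibrary A and once for sublibrary B.

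The screen used 2 established cancer cell lines in which the HER2 gene (ERBB2) is amplified, N87 from a gastric cancer and OE19 from an adenocarcinoma of the oesophagogastric junction. Both carried the lentiviral lentiCRISPR v2 library, which delivers Cas9 and 1 sgRNA together, and both had been selected with puromycin. Baseline cells were collected at the end of selection, vehicle cells after 14 days in DMSO, and lapatinib cells after 14 days in lapatinib, which blocks the kinase activity of EGFR and HER2, at 0.5 µM for N87 and 1 µM for OE19. Each of the 6 conditions had 2 replicates from separate infections, 12 libraries in all.

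A microRNA is a short RNA cut in successive steps from a hairpin by the nucleases DROSHA and DICER1. It then directs a silencing complex to messenger RNAs that pair with its seed, bases 2 to 8 from its 5′ end. Cas9 cuts the DNA at a match to the sgRNA that is followed by an NGG motif, the PAM, and faulty repair then alters the hairpin. In such a screen an sgRNA whose target slows growth when cut falls in abundance as the cells divide, an sgRNA whose loss helps cells to survive a drug rises, and Cas9 cutting at many places is itself known to slow growth. Many late-numbered microRNAs lie in repeated or duplicated DNA, where 1 sgRNA can match many sites.

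The sequences of the sgRNAs were not used here. To show what lay in the hairpins on which the growth results turned, sites that Cas9 could cut were read from GRCh37 and their exact matches followed by a PAM were counted on the chromosomes. The sites below are examples with the PAM in capitals, and whether the library held these sgRNAs was not tested. Each name is followed by its number of matches in the genome. For mir-8078, mir-1299, mir-6859-1 and mir-3180-5 the site with the most matches is shown among those that could be printed, and another site of the same hairpin had 3, 1, 4 and 2 matches. For mir-1273d and mir-3135b the site shown is one with the fewest matches of its hairpin, where other sites had up to 2728 and 1246.
mir-1273d, intron of KIF1B, chr1:10287780-10287802, + strand, 3 matches: cgcttgaacccatgaggttgAGG
mir-3135b, outside protein-coding genes, chr6:32717732-32717754, + strand, 2 matches: cactgcactcgctccagcctGGG
mir-8078, outside protein-coding genes, chr18:112287-112309, - strand, 20 matches: gcctgggattcctgccttctAGG
mir-1299, outside protein-coding genes, chr9:69002288-69002310, - strand, 39 matches: tgttctggaatcctacgtgaGGG
mir-6859-1, 3 identical hairpins in the genome, 7 matches: tgggagaggaacatgggctcAGG
mir-3180-5, outside protein-coding genes, chr16:2186100-2186122, + strand, 5 matches: ttcccggggcgcatgcgacgTGG
mir-1184-3, coding exon of F8A3 on the opposite strand, chrX:154687235-154687257, - strand, 3 matches: agccatcaagtcgctgcaggTGG
mir-4513, intron of CSK on the opposite strand, chr15:75081030-75081052, - strand, 1 match: aacttcggcccccagatttcTGG
mir-4728, intron of ERBB2, chr17:37882779-37882801, - strand, 1 match: gaggtcagcatgctagtcccAGG

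Across all sites of a hairpin the range was wider. The 6 sites of mir-5096, in an intron of BMP2K, had between 625 and 23543 exact matches, with a median of 11442. Those of mir-3929 ran from 272 to 283435 with a median of 610, those of mir-1273d from 3 to 2728 with a median of 239, and those of mir-3135b from 2 to 1246 with a median of 25.5. All 11 sites of mir-4513 and all 5 of mir-4728 had 1 match, their own.

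Mature microRNAs of some hairpins on which the growth results turned, and of mir-4513 and mir-4728, are listed from RefSeq on GRCh38.p14. The seed is in capitals, and for mir-4728 only the 3p form is listed. Those listed shared no seed except between copies of 1 microRNA. They are shown because copies under different names give the same RNA, as for the 3 copies of mir-6859.
hsa-miR-6859-5p (mir-6859-1, -2 and -3): gAGAGGAAcaugggcucaggaca
hsa-miR-6859-3p (mir-6859-1, -2 and -3): uGACCCCCaugucgccucuguag
hsa-miR-3180 (mir-3180-4 and -5): uGGGGCGGagcuuccggag
hsa-miR-1184 (mir-1184-3): cCUGCAGCgacuugauggcuucc
hsa-miR-7975: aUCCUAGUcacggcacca
hsa-miR-1304-5p: uUUGAGGCuacagugagaugug
hsa-miR-1299: uUCUGGAAuucugugugaggga
hsa-miR-3929: gAGGCUGAugugaguagaccacu
hsa-miR-8078: gGUCUAGGcccggugagagacuc
hsa-miR-3135b: gGCUGGAGcgagugcaguggug
hsa-miR-4513: aGACUGACggcuggaggcccau
hsa-miR-4728-3p: cAUGCUGAccucccuccugccccag

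The libraries held between 13105805 and 33743599 counted reads, of which the microRNA sgRNAs took 3.54 to 4.18%. Between 4 and 25 of them had no read in the baseline and vehicle libraries, against 196 and 75 in N87 with lapatinib and 105 and 31 in OE19 with lapatinib. Replicates of a condition correlated across the microRNA sgRNAs with r between 0.881 and 0.970 on the log2 scale, but differed by more than sampling noise (chi-square over degrees of freedom 1.75 to 14.5). Reads carry no molecular identifiers, so counting error understates the uncertainty. The lapatinib libraries of OE19 were the shallowest. The spread over the microRNA sgRNAs, as the interquartile range of log2 levels, was 1.65 with vehicle and 3.05 with lapatinib in N87, and 1.63 and 1.87 in OE19. For control guides the same range in N87 was 1.12 and 1.88, and in OE19 1.10 and 1.34, so both sets were wider with lapatinib. The part of read depth in this was not tested.

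At baseline, before drug or vehicle, the microRNA sgRNAs stood below the control guides. None of the libraries came from before infection, so whether this difference was in the library from the start was not tested. Their median minus that of the controls was -0.33 and -0.39 (log2) in the N87 baseline libraries and -0.38 and -0.28 in those of OE19. With vehicle the N87 libraries had -0.43 and -0.45 and the OE19 libraries -0.59 and -0.48. The difference between vehicle and baseline was -0.08 in N87 and -0.20 in OE19 on the log2 scale, with a pooled SD between replicates of 0.03 and 0.08. With lapatinib the values were -0.94 and -0.80 in N87 and -0.60 and -0.40 in OE19. The difference from vehicle was thus -0.44 in N87 (pooled SD 0.07) and 0.03 in OE19 (pooled SD 0.12). In N87 the 2 lapatinib libraries lay apart from the vehicle libraries, whereas in OE19 the conditions overlapped. With 2 libraries against 2 an exact two-sided permutation test cannot go below p = 0.333, so these differences were not tested further. The control guides themselves moved by a median of 0.25 with lapatinib in N87 and -0.14 in OE19 (log2), beside 0.09 and 0.19 between baseline and vehicle. All sgRNAs moved by -0.07 and -0.02 with lapatinib, and by 0.02 and 0.01 between baseline and vehicle. For the microRNA sgRNAs these medians were -0.11 and -0.06, then 0.01 and 0.01. The offsets from the control guides in N87 with lapatinib and during growth were thus not particular to the microRNAs.

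The comparison of vehicle with baseline asked which sgRNAs were lost or gained by growth alone. Few microRNAs were lost, and those that were lay mostly in repeated DNA or in duplicated hairpins. By robust rank aggregation, which asks whether the sgRNAs of a microRNA rank together among all sgRNAs, 7 of 1531 microRNAs were lower in N87, or 0.457%, where 2.28% of all genes were. In OE19 11 of 1531 were lower, or 0.718%, where 1.47% of all genes were. The microRNAs were thus called less often than all genes in both lines, and a test of that difference was not made. No microRNA rose in either line by this test (60 at an unadjusted p under 0.05 in each, and 0 with DESeq2 p-values), where 0.0574% of all genes rose in N87 and 0% in OE19.

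In N87 the 7 calls belonged to 5 families. The 3 copies of mir-6859 fell by a median over 4 sgRNAs of 1.06, 1.10 and 0.88 (log2; SD over sgRNAs 0.37, 0.26 and 0.14), with adjusted p = 0.00457, 0.00163 and 0.000778 (edgeR p-values with rank aggregation). Levels are given below as normalised counts, which are counts scaled to a common library size by median of ratios. The calls of the copies are not independent observations. The 3 hairpins are identical, and 10 of the 12 entries had a closest entry under another copy with a median difference of at most 1.155-fold over the 12 libraries. Whether 1 sgRNA was counted under several names was not tested. The entry HGLibA_29669 of mir-6859-3 had 128 and 78.85 normalised counts at baseline and 66.4 and 29.2 with vehicle. HGLibA_29667 of mir-6859-2 had 129 and 81.7, then 64.1 and 38.4. Vehicle lay below baseline in both replicates of both entries.

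mir-7975, near the end of the numbering, fell by a median of 0.59 ± 0.19 (SD over 4 sgRNAs) with adjusted p = 0.000944. Its entry HGLibA_30085 went from 107 and 74.7 normalised counts to 46.3 and 50.1. mir-1184-3, one of 3 exact copies of a hairpin that overlaps a coding exon of F8A3, fell by 0.79 ± 0.16 with adjusted p = 0.00111. All 4 of its sgRNAs were lower in both vehicle libraries, the largest change being from 57.6 and 50.2 to 32.4 and 23.4. mir-1304, in an intron of TAF1D, fell by 0.56 ± 0.41 with adjusted p = 0.0284, and mir-7641-2 by 0.98 ± 0.66 with adjusted p = 0.0405. Neither passed when any 1 library was left out. mir-7641-2 passed in 3 of the 7 other settings, with adjusted p = 0.385 with the replicate block, 0.770 with control guide factors and 0.692 with summed counts, where its log2 change was -0.16. No single sgRNA of any microRNA passed in N87 (0 of 5972 in either direction by edgeR, 147 higher and 248 lower at an unadjusted p under 0.05; DESeq2 called 1 lower), where 0% of all sgRNAs were higher and 0.0399% lower. With the replicate number as a block, 9 passed as higher and 62 as lower.

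The N87 calls leaned on particular libraries. Without vehicle replicate 2 only 1 microRNA passed, mir-6859-2. Without baseline replicate 1, vehicle replicate 1 or baseline replicate 2, the number was 3, 9 or 11. The copy mir-6859-2 passed without each library in turn and in all 7 other settings. Of single sgRNAs 113 then passed as higher and 222 as lower without vehicle replicate 1, 17 and 17 without vehicle replicate 2, 1 and 3 without baseline replicate 2, and 0 and 0 without baseline replicate 1.

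In OE19 the largest losses were those of hairpins with many genomic matches. mir-5096 fell by a median of 2.10 ± 0.76 (log2, SD over 4 sgRNAs) with adjusted p = 0.0326. Its entry HGLibA_27598 had 54.8 and 48.6 normalised counts at baseline and 6.64 and 17.0 with vehicle. mir-3929 fell by 1.94 ± 1.23 with adjusted p = 0.00551, and 3 of its 4 sgRNAs were scarce at baseline. Of these HGLibA_25648 had 12.2 and 20.1 at baseline and 0.737 and 1.14 with vehicle, while the more abundant HGLibA_25647 had 103 and 135, then 66.4 and 39.7. Vehicle and baseline did not overlap for any of these 3 entries.

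mir-1273d fell by 1.93 ± 1.65 with adjusted p = 0.0257, and its sgRNAs disagreed. HGLibA_23592 dropped from 60.9 and 81.25 normalised counts to 8.11 and 13.6 (adjusted p = 0.0175, edgeR), and HGLibA_23595 from 35.7 and 33.5 to 1.48 and 4.54 (adjusted p = 0.0339, edgeR). HGLibA_23593 had 138 and 134 at baseline and 151 and 134 with vehicle, so for 1 of the 4 sgRNAs the groups overlapped. mir-3135b fell by 1.42 ± 0.48 (adjusted p = 0.0237), mir-8078 by 1.45 ± 0.49 (adjusted p = 0.0392) and mir-1299 by 1.61 ± 0.39 (adjusted p = 0.0196). For mir-1299 all 4 sgRNAs were lower in both vehicle libraries, for example 143 and 131.5 against 40.6 and 70.4 for HGLibA_23729.

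The other OE19 calls were copies or unplaced hairpins. mir-7641-1 fell by 1.82 ± 0.52 with adjusted p = 0.000883, the lowest among the microRNAs. Its entry HGLibA_29969 went from 59.2 and 72.0 normalised counts to 8.11 and 13.6, and HGLibA_29974 of mir-7641-2 from 65.3 and 86.3 to 4.42 and 20.4. Over the 12 libraries these 2 entries correlated with r = 0.896, but their levels differed by a median of 1.41-fold. mir-3180-5 fell by 1.09 ± 1.01 (adjusted p = 0.0142), mir-3180-4 by 0.83 ± 0.16 (adjusted p = 0.0400), mir-6859-1 by 1.26 ± 0.46 (adjusted p = 0.0188) and mir-6087 by 1.06 ± 1.11 over 3 tested sgRNAs (adjusted p = 0.0460). mir-6859-1 was thus called in both lines, while mir-5096 had a median of -0.93 in N87 and was not called there.

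mir-7641-1 passed in all 7 other settings and without each of the 4 libraries. Without OE19 vehicle replicate 2 it was 1 of 2 microRNAs that passed, and without the other libraries 6 to 9 passed. mir-5096, mir-3929 and mir-6087 did not pass when any 1 library was left out, and mir-3929 had no value without baseline replicate 2. With the replicate block 4 of the 11 calls were lost, mir-8078 (adjusted p = 0.0517), mir-5096 (0.0525), mir-6087 (0.0774) and mir-3929 (0.199).

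Of 5969 single sgRNAs in OE19, 23 passed as lower (0.385%) and 1 as higher (0.0168%), where 0.893% and 0.0114% of all sgRNAs did. Without vehicle replicate 1 or 2 the numbers were 231 or 847 lower and 142 or 633 higher, and without baseline replicate 1 or 2 they were 12 or 0 lower and 0 higher. With the replicate block 123 passed as lower and 26 as higher. The 23 belonged to 20 microRNAs. Beside those above they included mir-1233-1 and mir-1233-2, 2 copies of mir-1302 and mir-566. HGLibA_23377 of mir-1233-1 fell from 216 and 284 normalised counts to 93.6 and 87.4 (log2 -1.47, adjusted p = 0.0132), and HGLibA_23381 of mir-1233-2 from 214 and 214 to 80.4 and 112 (log2 -1.18, adjusted p = 0.0323). HGLibA_28279 of mir-566, whose hairpin sites had a median of 114.5 matches, had 16.5 and 20.9 at baseline and no read in either vehicle library. Not all lay in repeats, since the sites of mir-6125 and mir-6780b each had 1 match. HGLibA_28701 of mir-6125 went from 26.98 and 33.5 to 0 and 3.405, and HGLibA_29352 of mir-6780b from 170 and 198 to 67.8 and 98.7. The sgRNA that rose was HGLibA_28211 of mir-5579, from 11.3 and 19.3 to 65.6 and 59.0.

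After these calls were seen, all microRNAs were grouped by the median number of genomic matches of the sites in their hairpins. In OE19, 33 of 37 microRNAs with a median of 10 or more matches had a median change below 0, or 89.2%, compared with 24 of 37 (64.9%) with over 3 to 9 matches, 83 of 122 (68%) with over 1 to 3 and 513 of 1188 (43.2%) with 0 or 1. Over all members it was 733 of 1531 (47.9%). The median change of the sgRNAs was -0.54, -0.16, -0.05 and 0.03 (log2) in the same order. In N87 the shares were 30 of 36 (83.3%), 31 of 37 (83.8%), 74 of 122 (60.7%) and 517 of 1189 (43.5%), and the medians -0.19, -0.16, -0.04 and 0.02. For another 156 microRNAs the sites were not counted, because no hairpin sequence was used here.

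The class with most matches held 9 of the 23 lower sgRNAs of OE19, 6.29% of its 143 tested, and 5 of the 11 called microRNAs. The class with 0 or 1 match held 3 of 4638 sgRNAs, or 0.0647%, and none of the called microRNAs. In N87 the class with 10 or more matches held none of the 7 calls. This class was also scarcer from the start, with medians of 74.9 and 82.1 normalised counts at OE19 baseline against 117.5 and 121.5 for the class with 0 or 1 match. A description of this kind was chosen with the calls known and carries no test, and the part of low counts in it was not tested.

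By location, microRNAs of introns made up 802 of the 1548, those outside protein-coding genes 415, those in coding exons 87 and those in exons outside the coding part 77, and 167 were not placed on GRCh37. The median growth change of sgRNAs in coding exons was -0.04 (log2) in both lines, against 0.02 in both lines for introns. Hairpins in introns of genes that were themselves called as depleted numbered 16 in N87, of which 11 had a median below 0, and 15 in OE19, of which 11 did. The sgRNA medians there were -0.04 and -0.21. Over all tested hairpins in introns, 356 of 800 in N87 and 369 of 800 in OE19 had a median below 0. For coding exons of depleted genes it was 3 of 5 and 2 of 3, and for exons outside the coding part 2 of 3 and 0 of 1. These differences were not tested.

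Lapatinib against vehicle asked which sgRNAs cells with the drug kept or lost. In N87 many sgRNAs passed in both directions, and the microRNAs followed all sgRNAs. In OE19 few sgRNAs passed, and some levels were over 20-fold higher. No microRNA passed rank aggregation in either line, though in N87 some had all 4 sgRNAs called in 1 direction. Rank aggregation counts only sgRNAs whose one-sided p-value ranks below 0.05 among all sgRNAs. Far more were called in each direction in N87, so most called sgRNAs there could not count. The test therefore cannot decide whether sgRNAs of a microRNA moved together in N87. In N87, 1794 of 5855 microRNA sgRNAs rose (30.6%) and 1722 fell (29.4%), where 31.2% and 29.9% of all sgRNAs did. Among control guides 731 of 1999 rose (36.6%) and 314 fell (15.7%), so that guides without a target also passed in numbers. The balance of directions in N87 depended on the scaling, with 1089 higher and 2540 lower microRNA sgRNAs by total counts only, and 1406 higher and 2129 lower when control guides alone set the TMM factors. In OE19, 97 of 5869 rose (1.65%) and 7 fell (0.119%), where 2.33% and 0.0795% of all sgRNAs and 2.21% and 0% of control guides did. Without OE19 vehicle replicate 1 or 2 the number that rose was 1 or 2, and without lapatinib replicate 1 or 2 it was 217 or 399 (falling: 0, 0, 26 and 276). In N87 the number that fell was 858 and 771 without vehicle replicate 1 and 2.

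Many microRNAs had sgRNAs called in both directions. In N87 it was 753 of the 1472 microRNAs with any called sgRNA and likewise 167 of 308 for let-7 and the microRNAs numbered to 500. Of the 1472, 136 had at least 3 sgRNAs higher and 110 at least 3 lower, beside 23 and 29 of those 308. The share over all genes was not counted, so these counts are no result about the microRNAs in particular. All 4 sgRNAs of mir-1184-3 fell, with log2 changes of -5.31 to -1.41, as did all 4 of mir-3940, with -2.39 to -0.89, and all 4 of mir-2278 rose, with 0.53 to 0.79. They are examples from the microRNAs named for their growth values. How many microRNAs had all 4 called was not counted, in a comparison that called 31.2% of all sgRNAs higher and 29.9% lower. Of 1306 microRNAs with 4 tested sgRNAs, 71 had all 4 above 0 (5.44%) and 112 all 4 below (8.58%). For let-7 and the microRNAs numbered to 500 the shares were close to these, at 5.23% and 9.06%. In OE19, 102 microRNAs had a called sgRNA, and only mir-4513, with 2 higher, and mir-3922, with 1 each way, had more than 1. By rank aggregation no microRNA passed in N87 (0 of 1522; 77 higher and 53 lower at an unadjusted p under 0.05), where 0% of all genes rose and 0.0144% fell. With DESeq2 p-values the count was 0 as well, in both lines. None passed in OE19 (0 of 1527; 60 higher and 103 lower), where 0.0957% of all genes rose and 0% fell. With the counts of a microRNA summed before the edgeR fit, 25 passed as higher in OE19. In N87 467 then passed as higher and 528 as lower. In this fit the most abundant sgRNA weighs most. The share of all genes that it called is not given here, so these counts are no result about the microRNAs in particular. Rank aggregation of edgeR p-values can miss sgRNAs that move together, since it gave CSK adjusted p = 1 in OE19, where its 6 sgRNAs had log2 changes of 9.79 to 11.34.

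In OE19, 19 microRNA sgRNAs were more than 20-fold higher with lapatinib, each of a different microRNA, or 0.314% of 6043. This was close to the 0.35% of control guides (7 of 2000) and the 0.335% of all sgRNAs. The largest was HGLibA_28939 of mir-6509, in an intron of WDR91. It had 130 and 225 normalised counts with vehicle and 108500 and 29320 with lapatinib, 387-fold higher, which ranked 10 among all sgRNAs of the library. The other 3 sgRNAs of mir-6509 were at 0.473 to 0.727 of vehicle. The tests disagreed, with adjusted p = 0.407 by edgeR and 7.7e-19 by DESeq2. In N87 the same sgRNA fell to 0.507-fold (adjusted p = 0.00387, edgeR).

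HGLibA_29629 of mir-6851, in an intron of NOL6, rose from 2.21 and 7.94 to 1473 and 399 (154-fold, adjusted p = 0.00337, edgeR). HGLibA_26692 of mir-4633, in an intron of ISOC1, rose from 61.2 and 57.9 to 8249 and 2265 (86.9-fold, adjusted p = 0.00558, edgeR). HGLibA_24854 of mir-3180-1 rose from 53.1 and 73.8 to 6812 and 1924 (67.8-fold, adjusted p = 0.00541, edgeR). In each case both lapatinib libraries lay above both vehicle libraries. HGLibA_29240 of mir-6757, in an intron of TNS2, had 214 and 199 with vehicle and 20710 and 6042 with lapatinib, 64.6-fold higher, with adjusted p = 0.0511 by edgeR and 1.98e-38 by DESeq2. The other sgRNAs of these 4 microRNAs lay between 0.487-fold and 1.44-fold. In all 5 cases replicate 1, the shallower library, had more than 3 times the level of replicate 2, and its part in the rise was not tested.

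In N87, 9 microRNA sgRNAs were more than 20-fold higher (0.149%), compared with none of 2000 control guides and 0.116% of all sgRNAs. HGLibA_26361 of mir-4474, in an intron of MLLT3, had 27.8 and 19.2 normalised counts with vehicle and 984 and 661 with lapatinib, a 33.6-fold rise (adjusted p = 1.8e-08, edgeR), against 2.296-fold in OE19. HGLibA_26434 of mir-4490 rose 25.8-fold, from 103 and 128.5 to 3559 and 2449 (adjusted p = 2.4e-08, edgeR), against 1.36-fold in OE19. Replicates were closer than in OE19, and lapatinib lay above vehicle throughout. The next 2 were HGLibA_28353 of mir-5692c-1 (25.4-fold) and HGLibA_28350 of mir-5692b (23.9-fold), whose counts over the 12 libraries correlated with r = 0.995 and differed by a median of 1.09-fold. Whether they are 1 sgRNA counted under both names was not tested. HGLibA_29130 of mir-6731, in an intron of RUNX3, rose 23.5-fold from 16.2 and 1.67 to 323 and 143.

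In each direction the 5 lowest rank aggregation p-values were taken among microRNAs whose median change had that sign in both replicate pairs. Agreement in sign between the pairs was thus built in. In OE19 this left out mir-6851, whose p of 0.000489 by rank aggregation was below that of mir-549a, with a median of -0.31. Of the microRNAs so taken, those of N87 had 2 or 3 sgRNAs called in that direction. In OE19 the 5 on the higher side had 1 or 2, and the 5 on the lower side had none. In N87 mir-4276 had 3 of 4 sgRNAs higher: 4.50-fold, 5.32-fold and 4.91-fold, and the last at 0.895-fold. Its median was 2.19 ± 1.24 (log2), with adjusted p = 0.532 by rank aggregation, and in OE19 the median was -0.58. mir-3591 in N87 had sgRNAs at 11.6-fold, 9.21-fold, 1.81-fold and 0.446-fold (adjusted p = 0.538), and mir-6730 had 3 sgRNAs lower, at 0.175-fold to 0.241-fold, and 1 at 3.60-fold (adjusted p = 0.490). In OE19, mir-549a had a median of 1.15 ± 1.44 with adjusted p = 0.280, mir-568 of -1.77 ± 0.83 with 0.289 and mir-5092 of -1.37 ± 1.06 with 0.289. For mir-568 all 4 sgRNAs were lower with lapatinib, from 0.186-fold to 0.553-fold, yet none of the 4 passed alone.

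The 7 sgRNAs that fell with lapatinib in OE19 belonged to 7 microRNAs. HGLibA_28211 of mir-5579 fell most, from 65.6 and 59.0 with vehicle to 2.58 and 9.31 (log2 -3.23, adjusted p = 0.0318, edgeR). It is the sgRNA that rose from baseline to vehicle, and both comparisons share the vehicle libraries; its lapatinib levels lay below both baseline levels, 11.3 and 19.3. HGLibA_30330 of mir-920 fell from 147 and 160 to 25.8 and 60.5 (log2 -1.77, adjusted p = 0.0473), where baseline had been 152 and 133. The others, of mir-4460, mir-7515, mir-5587, mir-3922 and mir-548u, changed by -2.39 to -1.44 on the log2 scale.

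mir-4513 lies within CSK, the kinase that restrains Src family kinases, in an intron and on the opposite strand. The 6 sgRNAs against CSK itself had a median change of 10.80 (log2) with lapatinib in OE19 and 2.56 in N87, although rank aggregation of edgeR p-values called neither (adjusted p = 1 and 0.986). HGLibA_26550 of mir-4513 had 95.9 and 118 normalised counts in the OE19 vehicle libraries and 953 and 863 in the lapatinib libraries, 8.42-fold higher. HGLibA_26548 had 265 and 285, then 589 and 1497, 3.78-fold higher. Both pairs of libraries were apart (log2 3.07 and 1.92, adjusted p = 0.00337 and 0.0341, edgeR). The other 2 sgRNAs were at 0.735-fold and 1.37-fold. The microRNA had a median of 1.17 ± 1.57 and adjusted p = 0.195, with 0.0418 to 0.592 over the 7 other settings. It also did not pass when any 1 library was left out. Nearly all higher calls of single microRNA sgRNAs in OE19 were lost without 1 of the vehicle libraries. In N87 the same 4 sgRNAs, in the order of their entries, changed 3.78-fold, 3.54-fold, 0.362-fold and 1.67-fold, so that HGLibA_26550 rose in OE19 and fell in N87.

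mir-4728 lies in an intron of ERBB2, the amplified gene, on the same strand. From baseline to vehicle its 4 sgRNAs changed by -1.26, -0.26, -0.76 and -0.89 (log2) in N87, a median of -0.82 ± 0.41 with adjusted p = 0.114. HGLibA_27062, the lowest, had 57.0 and 40.5 normalised counts at baseline and 23.2 and 17.5 with vehicle. In OE19 the median was -0.50 ± 0.60 with adjusted p = 1. It was past the threshold in N87 only with summed counts (0.0486). The sgRNAs against ERBB2 had medians of -0.54 in N87 (adjusted p = 0.590) and -0.97 in OE19 (adjusted p = 0.0140).

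Another 7 of the microRNAs lay within 1 Mb of ERBB2, from mir-4734 and mir-4726 on one side to mir-6867 on the other. Including mir-4728, 7 of the 8 had a median below 0 during growth of N87, with a median of -0.35 over 32 sgRNAs, compared with 5 of 8 and a median of 0.06 in OE19. mir-4726, in an intron of MLLT6, had -0.67 in N87 with adjusted p = 0.344. Over all sgRNAs the median was 0.02 in N87 and 0.01 in OE19. With lapatinib 3 of the 32 rose in OE19 (9.38%, beside 2.33% of all sgRNAs and 1.65% of the microRNA sgRNAs), 1 each for mir-4726, mir-4727 and mir-6884, and the median was 0.33. Without 1 of the OE19 vehicle libraries only 1 or 2 higher calls were left among all the microRNA sgRNAs. In N87, 8 of 30 rose and 7 fell. The copy number at these sites was not used here, and its part in these values was not tested.

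Of the 5 microRNAs of the PVT1 locus, a long noncoding RNA gene beside MYC, 4 had the 2 sgRNAs that rank aggregation needs, and 3 in N87 with lapatinib. None of these was called. With lapatinib mir-1205 had a median of -1.60 ± 0.90 in N87, with 3 of 4 sgRNAs lower, and 0.26 in OE19. HGLibA_23327 of mir-1204 rose 5.90-fold in OE19, from 184 and 137 to 1372 and 535 (adjusted p = 0.00889, edgeR), while its other 3 sgRNAs were between 0.878-fold and 1.35-fold. One sgRNA of mir-1208 also passed as higher there. mir-1206 had 1 sgRNA and could not be called.

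Of the better studied microRNAs none was called by rank aggregation. mir-503, related to the mir-16 family that represses cell cycle genes, had 1 sgRNA of 4 higher with lapatinib in OE19: HGLibA_27521 rose 12.2-fold, from 361 and 340.5 to 6518 and 2085 (adjusted p = 0.0240, edgeR), and the others were between 0.900-fold and 1.19-fold. In N87 the same 4 sgRNAs were at 1.73-fold, 1.86-fold, 1.73-fold and 0.384-fold. mir-542, mir-675, which is cut from the H19 RNA, mir-708 and mir-744 had growth medians between -0.30 and 0.11 in both lines. mir-663a had -0.68 ± 0.63 in N87 and -0.80 ± 0.52 in OE19. The 4 names of a list tied to ribosomal DNA repeats (mir-663a, mir-663b, mir-3648 and mir-3687) had sgRNA medians of -0.64 and -0.46, and none was called.

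Among larger families growth changes were close to 0. The 70 names of the mir-548 family, which derive from a transposon, had sgRNA medians of -0.01 in both lines and 1 lower sgRNA, in OE19. The 53 of the chromosome 19 cluster, expressed mainly in placenta, had 0.02 and 0.05 with no call. The 24 broadly conserved microRNAs had 0.08 and 0.04 and likewise no call, and 4 of the 24 in N87 and 10 of 24 in OE19 had a median below 0. For names with a copy number, which mark several genomic loci, 120 of 204 in N87 and 122 of 204 in OE19 were below 0, and they held 5 of the 7 calls in N87 and 4 of the 11 in OE19. With lapatinib in OE19, 52 of 68 of the mir-548 family and 42 of 53 of the chromosome 19 cluster had a median below 0, against 882 of 1527 over all members. It was 195 of 314 for let-7 and the microRNAs numbered to 500. The sgRNA medians of the 2 families were -0.27 and -0.16 (log2). Control guides also lay below 0, with a median of -0.14, beside -0.06 for all members, so a negative median was not particular to these families.

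mir-511 was the only name with 8 entries, and it was singled out after its entries were seen. Its entries fell into 4 pairs at matching places in the list, which correlated over the 12 libraries with r = 0.845, 0.583, 0.977 and 0.853 and differed by a median of 0.14 to 0.21 on the log2 scale. Other pairs of its entries differed by 0.35 to 1.93. Its hairpin has 2 exact loci on GRCh37, and whether the 8 entries are 4 sgRNAs listed again was not tested.

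Whether the lines responded differently to lapatinib was tested as an interaction in a fit of 8 libraries. The doses differ, so line and dose cannot be told apart. Of 5881 microRNA sgRNAs, 1141 changed more upward in OE19 than in N87 (19.4%) and 1235 more downward (21%), where 20.7% and 20.5% of all sgRNAs did. Among control guides it was 9.05% and 27.1%. Without OE19 vehicle replicate 1 the upward count was 646, and it was 658, 665 and 675 without N87 vehicle replicate 1, vehicle replicate 2 and lapatinib replicate 1. For the change from baseline to vehicle no microRNA sgRNA differed between the lines (0 of 5975 by edgeR; 121 and 134 at an unadjusted p under 0.05), where 0% and 0.00325% of all sgRNAs did, although 8 and 31 did without OE19 vehicle replicate 2. The microRNAs called in 1 line alone were therefore not shown to differ between the lines.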

How the data were processed

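Per the study's methods and the submitters' processing notes, reads were trimmed, inspected with FastQC (0.11.5) and aligned to the sgRNA library with Bowtie (Bowtie2 2.3.2 in the notes) with under 2 mismatches. The authors deposited raw counts per sgRNA, and MAGeCK (0.5.6) and edgeR gave their gene scores, not used here. All 12 columns of counts were used. Each of the 4 comparisons was fitted in R 4.3.3 with the quasi-likelihood test of edgeR 4.0.16 (limma 3.58.1) and TMM factors, for sgRNAs with at least 40 counts over 4 libraries (80 over 8 for interactions), with Benjamini-Hochberg adjustment over all sgRNAs and a threshold of 0.05. One-sided p-values ranked below 0.05 were aggregated per gene with at least 2 sgRNAs. DESeq2 1.42.0 was an alternative. Normalised counts were scaled by median of ratios, and folds use a pseudocount of 1. Python 3.11.15, numpy 2.4.6, pandas 2.3.3 and scipy 1.17.1 gave the summaries. The fits were also run on simulated counts in which few genes changed, which is unlike N87 with lapatinib, and the outcome is not given here.

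MicroRNAs were named where rank aggregation called them or where they had 1 of the 5 largest folds per line. Also named were those with 1 of the 5 lowest p-values per comparison and direction. These were taken among microRNAs whose median change had that sign in both replicate pairs. Others were named because they lay by ERBB2 or PVT1 or are well studied. The sgRNAs called in OE19 were listed in addition. Members, lists and tests were chosen with earlier results of these data known. RefSeq named 1475 of the 1548 microRNAs and gave 1199 hairpins. GENCODE and exact hairpin matches placed 1381 on GRCh37.

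The study names 2 infection replicates per line, and the replicate number may mark the infection, but no source states this for each library. The main comparisons therefore have no replicate block, and values with the block stand beside the calls that it changes. The differences between replicates 1 and 2 correlated between conditions with r = 0.0606 and 0.0340 (lapatinib and vehicle, N87 and OE19) and 0.238 and 0.0746 (vehicle and baseline).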

Additional observations from a re-analysis of the deposited data

Results flagged for a closer look

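For 12 of the named sgRNAs the change with lapatinib differed between OE19 and N87, by edgeR's interaction term in the fit of 8 libraries. Such calls were common in that fit. Of the microRNA sgRNAs 19.4% changed more upward in OE19 and 21% more downward, where 20.7% and 20.5% of all sgRNAs did. Values are the log2 change in OE19 minus that in N87, at doses that also differ, and the adjusted p lay between 1.9e-05 and 0.00276. The 5 sgRNAs with the largest folds in OE19 had positive differences: 9.66 for mir-6509, 10.95 for mir-6851, 4.83 for mir-4633, 8.18 for mir-3180-1 and 5.27 for mir-6757. The 5 with the largest folds in N87 had negative ones: -3.84 for mir-4474, -4.22 for mir-4490, -4.86 for mir-5692c-1, -4.64 for mir-5692b and -6.43 for mir-6731. These 10 were chosen for their fold in 1 line. In the OE19 comparison alone the sgRNAs of mir-6509 and mir-6757 did not pass by edgeR. The 2 others were sgRNAs of mir-4513, HGLibA_26550 with 4.64 and HGLibA_26549 with -2.20, so 2 sgRNAs of the same hairpin differed between the lines in opposite directions.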

How the results depend on the processing

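With 2 libraries per condition, single libraries set most counts of calls. Leaving out each library in turn gave ranges, for sgRNAs higher and lower, of 1399 to 1910 and 771 to 2125 (N87 lapatinib), 1 to 399 and 0 to 276 (OE19 lapatinib), 0 to 113 and 0 to 222 (N87 growth), 0 to 633 and 0 to 847 (OE19 growth), 646 to 1448 and 904 to 1288 (lapatinib interaction) and 0 to 8 and 0 to 31 (growth interaction). For microRNAs lower during growth it was 1 to 11 in N87 and 2 to 9 in OE19, and 0 to 0 for microRNAs in the other directions and comparisons. The shifts against control guides ranged from -0.51 to -0.37 and -0.07 to 0.13 with lapatinib (N87, OE19) and from -0.10 to -0.05 and -0.26 to -0.15 during growth.

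With TMM factors from the control guides, OE19 lapatinib gave 147 higher and 3 lower sgRNAs, growth gave 4 lower in N87 and 88 lower in OE19, and 6 microRNAs were lower in OE19. With total counts only, 1089 sgRNAs were higher in N87 and 25 lower in OE19 with lapatinib. DESeq2 gave 14 lower with lapatinib in OE19 and 1 lower in N87 growth. Summed counts gave 467 and 528 microRNAs in N87 and 25 higher in OE19 with lapatinib, and 2 higher and 46 lower in OE19 growth. With the mean in place of the median the N87 growth shift was -0.13. The replicate block, as an alternative to unpaired libraries, gave 9 higher and 62 lower sgRNAs in N87 growth and 26 higher and 123 lower in OE19 growth. The cause of these changes was not tested. Shares over all sgRNAs and genes in these settings are not given here, so the counts show only how the calls moved. No called value changed sign, while the OE19 lapatinib shift, near 0, lay on either side of it. Of the 18 growth calls of microRNAs, 2 (mir-6859-2 in N87 and mir-7641-1 in OE19) passed in every setting and without each library. Members with few counts could show only large losses.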
